A study of Homo sapiens with 27 samples.

Results

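LAMP5, EMP3, MYL10 and LIX1L were chosen by their measured late change, which was larger in colorectal cancer cells with an inducible Snail1 transgene than in cells with an inducible Lef1 transgene. DDIT4L was added as a comparison gene. They are 5 of the 13510 genes tested, and each is read by 1 of the 47323 probes on the array. All 5 probes passed the filter on dim probes, those of LAMP5, MYL10 and LIX1L through SNAI1 line arrays alone. Because the late values chose these genes, their late changes are given as a description with no test. The same holds where late arrays are said to lie above others. How many of all genes show such a separation was not counted. The tests of these genes use the arrays of 3 and 6 h, which the choice did not use.

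LS174T is an established human colorectal carcinoma line. The lines were made from pN1-LS174T cells: the SNAI1 line holds the mSnail1-HA transgene and the LEF1 line the mLef1-HA transgene, both of mouse sequence with an HA tag and both switched on by doxycycline. The control line carries the overexpression label "none", and its descriptions read "Luc", which the labels do not explain. Doxycycline was used at 0.1 µg/ml and renewed at 48 h. Total RNA was hybridised to Illumina bead arrays, 27 in all: 9 of the control line, 11 of the SNAI1 line and 7 of the LEF1 line. Pairs of arrays cover 0 and 6 h in every line, 48 and 96 h in the SNAI1 line and 72 h in the LEF1 line, and single arrays cover 3, 24, 48, 72 and 96 h of the control line, 3, 24 and 72 h of the SNAI1 line and 24 h of the LEF1 line. The labels do not say whether arrays of 1 group came from separate cultures or whether a line is 1 clone, so p-values measure only the spread between these arrays, which may be technical. The number of arrays limits the precision, and the model lends a group of 1 array the spread of the paired groups.

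Snail1 is a zinc finger repressor of the epithelial-mesenchymal transition that binds E-box sequences, and LEF1 is a DNA-binding partner of beta-catenin in Wnt signalling. LAMP5 encodes a relative of the lysosome-associated membrane proteins known from neurons and plasmacytoid dendritic cells, and EMP3 a membrane protein with 4 spans of the PMP22 family. MYL10 encodes a myosin regulatory light chain, LIX1L a relative of the LIX1 protein with a putative RNA-binding role, and DDIT4L (REDD2) a relative of the stress-induced mTORC1 inhibitor DDIT4.

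The sequence before each gene's start was set beside the time courses because these genes all rose late in the SNAI1 line. That rise was also the ground for choosing them, DDIT4L aside, so it is not a finding about them. RefSeq windows of 250 bases (GRCh38.p14), which end at the base before the start, matched 4 of the 5 genes, MYL10 aside: LAMP5 (chr20:9514340-9514589, plus strand), EMP3 (chr19:48325302-48325551, plus strand), LIX1L (chr1:145958018-145958267, minus strand) and DDIT4L (chr4:100190469-100190718, minus strand). They are printed 5′ to 3′ on the gene's strand with each CANNTG match, the general E-box, in capitals.
LAMP5: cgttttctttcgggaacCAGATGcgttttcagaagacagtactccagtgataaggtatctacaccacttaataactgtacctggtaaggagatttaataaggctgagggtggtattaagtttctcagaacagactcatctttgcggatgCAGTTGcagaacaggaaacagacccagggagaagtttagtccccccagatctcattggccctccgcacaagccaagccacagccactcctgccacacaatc
EMP3: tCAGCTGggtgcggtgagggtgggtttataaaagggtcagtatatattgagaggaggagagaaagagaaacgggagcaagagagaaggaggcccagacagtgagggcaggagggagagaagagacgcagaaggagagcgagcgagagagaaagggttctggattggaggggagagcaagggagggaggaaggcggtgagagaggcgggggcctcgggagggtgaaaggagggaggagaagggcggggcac
LIX1L: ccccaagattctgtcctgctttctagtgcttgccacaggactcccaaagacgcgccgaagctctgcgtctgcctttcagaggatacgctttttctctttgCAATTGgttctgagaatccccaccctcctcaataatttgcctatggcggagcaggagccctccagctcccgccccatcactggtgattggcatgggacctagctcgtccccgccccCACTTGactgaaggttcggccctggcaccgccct
DDIT4L: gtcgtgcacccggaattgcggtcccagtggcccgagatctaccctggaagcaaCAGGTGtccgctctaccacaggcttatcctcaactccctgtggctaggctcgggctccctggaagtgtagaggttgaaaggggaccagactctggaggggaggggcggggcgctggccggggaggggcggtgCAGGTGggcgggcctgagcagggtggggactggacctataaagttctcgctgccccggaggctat
CANNTG, searched on both strands, occurred in all 4 windows, 2 times for LAMP5, LIX1L and DDIT4L and 1 time for EMP3. It was found in 61.8% of all 35116 windows of this length. The narrower form CAGGTG, which is one case of CANNTG, was in the DDIT4L window alone among these 4, starting 197 and 65 bases before the start, and in 17.5% of all windows. The LEF1-type motifs CTTTGAT and CTTTGAA, which do not overlap the E-box, were in none of the 4 windows and in 2.26% and 3.8% of all windows. A further EMP3 window in RefSeq (chr19:48325749-48325998) also held CANNTG 1 time and none of the other 3 motifs. A match is a run of letters and does not show binding.

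Before the results, 2 features of the arrays matter. The form of the detection p-value, which tells whether a probe is above background, gives 2 array sets. Set 1 has 18 arrays, the whole SNAI1 line and 7 control arrays, with 18243 to 19685 detected probes each. Set 2 has 9 arrays, the whole LEF1 line, control 0 h replicate 2 and control 6 h replicate 1, with 14769 to 15920 detected probes. The lowest normalized signal of a detected probe averaged 4.57 on the log2 scale on the SNAI1 line's 0 h arrays and 5.56 on those of the LEF1 line, so a dim signal counted as detected in the SNAI1 line can go undetected in the LEF1 line. In addition, SNAI1 line 6 h replicate 2 stood apart from replicate 1 for DDIT4L and LIX1L, and results that rest on it are given with and without it. Here a probe was called detected at a detection p under 0.01.

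The epithelial label of the cells was borne out by EPCAM, KRT8, KRT18, CDH1, CDX1, CDX2 and LGALS4, which were detected on all 27 arrays, while VIL1 was detected on 24 and KRT20 on 7. CDH1, which encodes E-cadherin, had group means between 11.4 and 11.8 on the log2 scale in the control and LEF1 lines and 9.36 at 96 h in the SNAI1 line. The human LEF1 probe had a mean of 6.26 at 0 h and 11.9 at 96 h in the SNAI1 line. The LEF1 line had 4.88 at 0 h, where it was not detected, and means of 6.01 by 24 h and 9.41 by 72 h.

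LAMP5, MYL10 and LIX1L were not detected at 0 h in any line and were first detected on all arrays of a time at 24 h, in the SNAI1 line. In the control and LEF1 lines none of these 3 probes was detected at any time. EMP3 was detected on all 27 arrays and so from 0 h in each line. DDIT4L was detected on all arrays from 0 h in the SNAI1 line, from 3 h in the control line and from 6 h in the LEF1 line, although 1 of 2 control arrays and 1 of 2 SNAI1 arrays at 6 h did not detect it. When 1 detected array sufficed, LIX1L was first seen at 6 h in the SNAI1 line and DDIT4L at 0 h in the control line. At a looser p of 0.05, LAMP5 counted as detected at 72 h in the LEF1 line and MYL10 at 72 h in the control line.

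**Figure D1:**
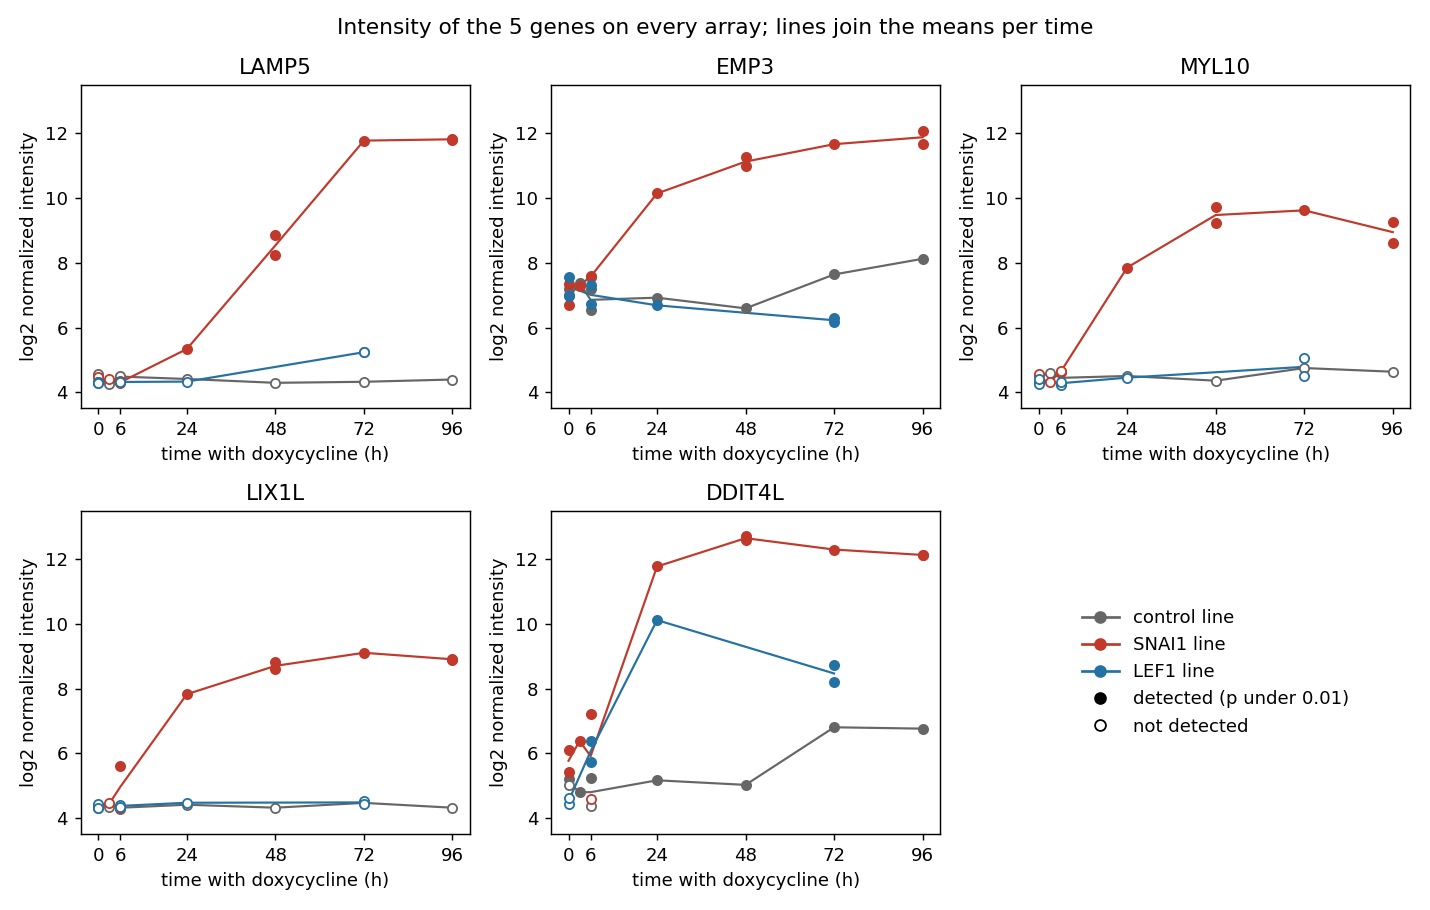
Normalized log2 intensity (y axis) of the 5 genes against hours with doxycycline (x axis); each point is 1 array, filled where detected, and lines join the means per time for the control, SNAI1 and LEF1 lines. LAMP5, MYL10 and LIX1L lie between 4.23 and 5.24 with open points in the control and LEF1 lines, while DDIT4L also climbs in the LEF1 line, to 10.12 at 24 h.

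LAMP5 read 4.49 and 4.33 at 0 h, 4.40 at 3 h, and 4.35 and 4.28 at 6 h in the SNAI1 line on the normalized log2 scale, none of them detected. It then read 5.34 at 24 h, 8.85 and 8.23 at 48 h, 11.78 at 72 h, and 11.84 and 11.80 at 96 h, all detected. Every late SNAI1 array lay above every control array, which ran from 4.27 to 4.58 with none detected. Against the 0 h arrays, which give only an upper bound, LAMP5 was at least 1.70-fold higher at 24 h, 15.7-fold at 48 h, 148-fold at 72 h and 152-fold at 96 h. In these lower bounds the brighter mean is set against the higher of the dim probe's own signal and the lowest detected signal of each array. All such bounds hold on the background-corrected scale only. The authors' normalized log2 values lie closer together. In them, SNAI1 line LAMP5 read 11.80 at 72 h and 6.61 and 6.47 at 0 h. MYL10 read 9.75 against 6.41 and 6.65, and LIX1L 9.29 against 6.50 and 6.51. In the LEF1 line LAMP5 read, on the background-corrected scale, 4.31 and 4.30 at 0 h, 4.33 and 4.31 at 6 h, 4.33 at 24 h and 5.24 on both 72 h arrays. The 72 h pair was the highest of that line but was not detected, with detection p-values of 0.0195 and 0.0286.

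MYL10 had no detected array before 24 h in the SNAI1 line, with 4.28 and 4.56 at 0 h, 4.32 at 3 h, and 4.63 and 4.65 at 6 h. It read 7.86 at 24 h, 9.73 and 9.23 at 48 h, 9.62 at 72 h, and 9.28 and 8.62 at 96 h. These 6 late arrays were all detected and did not overlap the control arrays (4.26 to 4.75) or the LEF1 line's arrays (4.23 to 5.06), none of which was detected. The lower bounds against 0 h were 9.75-fold at 24 h, 30.03-fold at 48 h, 33.2-fold at 72 h and 20.8-fold at 96 h. MYL10 is a light chain gene of muscle and lymphoid cells. Of the 4 muscle markers examined, ACTA1 and DES were detected on 0 of 27 arrays, MYH2 on 3 and TNNT1 on 8. TNNT1, a troponin of slow muscle, was detected on all 6 late SNAI1 arrays and rose there (late effect 1.53, SE 0.375, limma adjusted p = 0.0195). The summed muscle marker level ran from 6.07 to 6.59 on the late SNAI1 arrays, from 4.42 to 5.24 on its earlier arrays, from 4.48 to 5.74 in the control line and from 4.46 to 5.51 in the LEF1 line on the log2 scale. Its part in the MYL10 values was not tested. In bulk RNA, fewer cells of a type and less RNA per cell cannot be told apart.

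LIX1L was not detected at 0 h (4.35 and 4.37) or 3 h (4.45) in the SNAI1 line. At 6 h replicate 1 read 5.62 and was detected, while replicate 2 read 4.32 and was not. It then read 7.83 at 24 h, 8.81 and 8.59 at 48 h, 9.11 at 72 h, and 8.92 and 8.89 at 96 h. The late arrays lay well above the control line (4.28 to 4.47) and the LEF1 line (4.30 to 4.53), in which it was not detected on any array. The lower bounds against 0 h were 9.56-fold at 24 h, 17.5-fold at 48 h, 23.2-fold at 72 h and 20.2-fold at 96 h.

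EMP3 was present before doxycycline, with 7.34 and 6.69 at 0 h in the SNAI1 line. It read 7.30 at 3 h, 7.56 and 7.59 at 6 h, 10.15 at 24 h, 11.27 and 10.99 at 48 h, 11.67 at 72 h, and 12.08 and 11.68 at 96 h. Every late SNAI1 array was above every other array of the series, whose highest was 8.13 in the control line at 96 h. The control line read 7.02 and 7.20 at 0 h, 7.38 at 3 h, 6.53 and 7.18 at 6 h, 6.93 at 24 h, 6.59 at 48 h, 7.64 at 72 h and 8.13 at 96 h, so its 2 latest arrays were its 2 highest. The LEF1 line went the other way, from 6.97 and 7.57 at 0 h and 6.72 and 7.30 at 6 h to 6.69 at 24 h and 6.16 and 6.29 at 72 h, and its late arrays lay below its earlier ones.

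DDIT4L, the comparison gene, was already higher in the SNAI1 line at 0 h (6.12 and 5.43) than in the control line (5.20 and 5.01, the latter not detected). The SNAI1 line read 6.38 at 3 h, 7.23 and 4.60 at 6 h (the latter not detected), 11.78 at 24 h, 12.72 and 12.58 at 48 h, 12.30 at 72 h and 12.13 on both arrays at 96 h. The LEF1 line read 4.43 and 4.61 at 0 h, neither detected, 6.39 and 5.74 at 6 h, 10.12 at 24 h, and 8.72 and 8.22 at 72 h. All late arrays of both lines lay above all control arrays, of which the 2 latest, 6.81 at 72 h and 6.76 at 96 h, were the highest. At 72 h the LEF1 line was below its 24 h value, whereas the SNAI1 line stayed between 12.13 and 12.72 from 48 h on. The LEF1 line's lower bounds against 0 h were 1.42-fold at 6 h, 23.5-fold at 24 h and 7.49-fold at 72 h.

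The genes approached their highest level in the SNAI1 line at different times. At 24 h LAMP5 was at 0.68% of its highest linear mean, MYL10 at 27.9%, EMP3 at 29.7%, LIX1L at 39.4% and DDIT4L at 54.4%. At 48 h LAMP5 was at 9.90%, EMP3 at 59.2%, LIX1L at 74.9% and MYL10 at 90.3%, while DDIT4L had its highest mean. MYL10 and LIX1L had their highest means at 72 h and stood at 61.9% and 86.6% of them at 96 h. LAMP5 and EMP3 were highest at 96 h, and LAMP5 had reached 97.2% and EMP3 86.2% by 72 h. The 24 and 72 h points are single arrays, and these shares come from values with no error of their own.

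**Figure D2:**
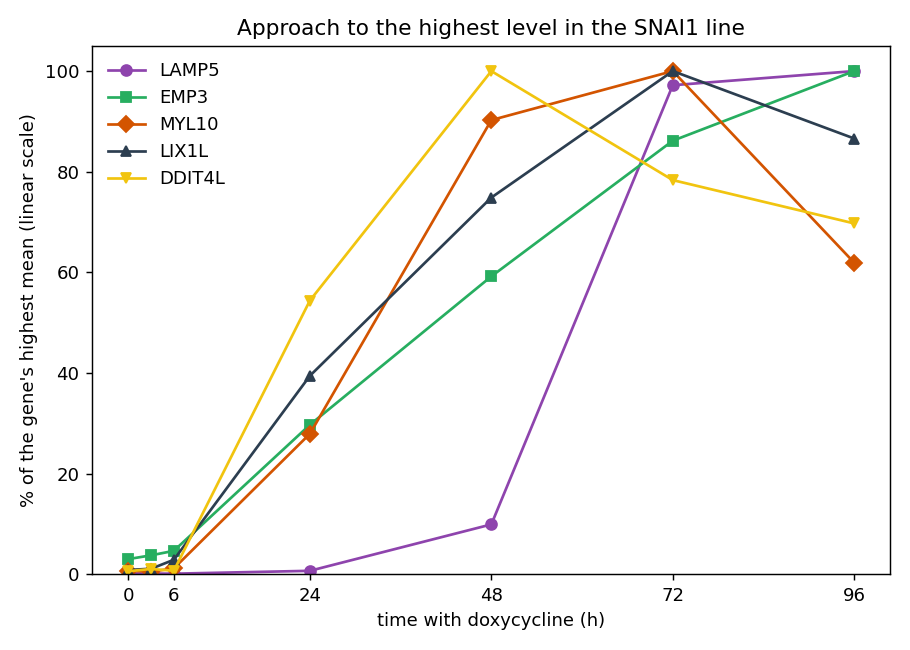
Mean linear intensity in the SNAI1 line as a percent of the gene's own highest mean (y axis) against hours with doxycycline (x axis), 1 line per gene. DDIT4L passes 50% by 24 h, and LAMP5 is still at 9.90% at 48 h.

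The lines share 24 and 72 h, where the change from 0 h minus that of the control line can be set side by side as a description. For LAMP5, MYL10 and LIX1L these are differences of normalized values against 0 h signals at background, not fold changes. The lower bounds above give their sizes, and those bounds depend on the background correction too. LAMP5 had a change of 0.95 on the log2 scale at 24 h and 7.48 at 72 h in the SNAI1 line, against 0.05 and 1.04 in the LEF1 line. For MYL10 the changes were 3.40 and 4.92 against 0.08 and 0.16, and for LIX1L 3.41 and 4.63 against 0.04 and -0.005. EMP3 had 3.32 and 4.12 in the SNAI1 line and -0.40 and -1.58 in the LEF1 line. Of the LEF1 line's value at 72 h, -1.05 was its own change from 0 h and the control line's was 0.53. DDIT4L had changes of 5.95 and 5.54 in the SNAI1 and LEF1 lines at 24 h, and of 4.83 and 2.25 at 72 h. Both lines are set against the same control arrays, and every LEF1 array belongs to set 2 while the SNAI1 arrays are in set 1, so line and array set cannot be told apart.

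**Figure D3:**
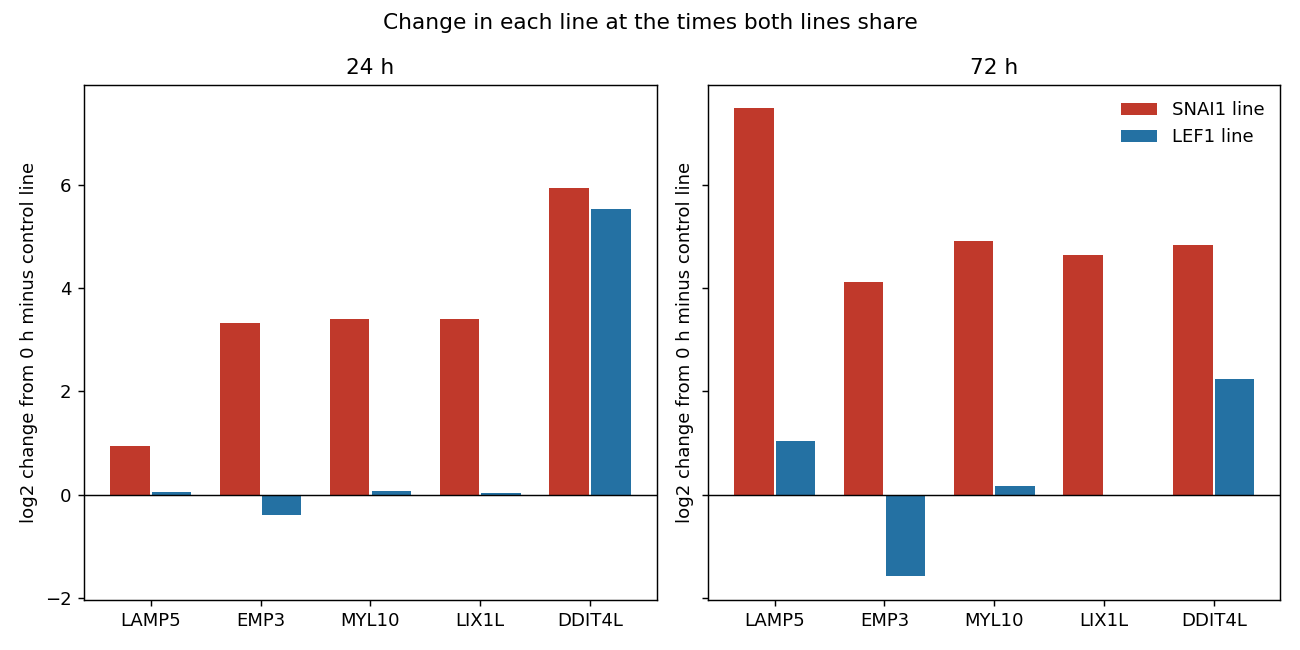
Change from 0 h minus that of the control line on the log2 scale (y axis) for the 5 genes at 24 h (left) and 72 h (right), with SNAI1 line and LEF1 line bars; for LAMP5, MYL10 and LIX1L the 0 h signal is at background. The bars of DDIT4L are both above 5 at 24 h, whereas the LEF1 bars of the other genes lie between -1.58 and 1.04.

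Averaged over times, the late effect is the mean change from 0 h minus that of the control line, over 24 to 96 h in the SNAI1 line and over 24 and 72 h in the LEF1 line. For LAMP5, MYL10 and LIX1L it too is taken against signals at background. It was 5.04 for LAMP5, 3.98 for EMP3, 4.46 for MYL10, 4.25 for LIX1L and 5.61 for DDIT4L in the SNAI1 line on the log2 scale. In the LEF1 line it was 0.55, -0.99, 0.12, 0.02 and 3.89 in the same order. Over all genes limma called 526 higher in the SNAI1 line late (3.89%) and 120 higher in the LEF1 line late (0.888%). The change in the SNAI1 line minus that in the LEF1 line, over 24 and 72 h, was 3.67, 4.71, 4.04, 4.0 and 1.49. For that difference limma called 137 of all genes higher (1.01%). The SNAI1 line has 1 array at each of these times, and leaving it out drops that time from both lines. The LAMP5 difference was thus 0.90 at 24 h alone (without the 72 h array) and 6.43 at 72 h alone. Likewise the DDIT4L difference was 0.41 at 24 h alone and 2.58 at 72 h alone. The DDIT4L effect in the LEF1 line was 2.25 at 72 h alone (without control 24 h) and 5.54 at 24 h alone (without control 72 h). Without background correction the SNAI1 line effects were smaller for the dim probes, at 3.34 for LAMP5, 2.63 for MYL10 and 2.37 for LIX1L, and 3.37 for EMP3 and 4.78 for DDIT4L.

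At 3 and 6 h, none of the 5 genes passed the 5% threshold in the SNAI1 line against the control line. Limma called 0 of 5, against 11 of all 13510 genes (0.0814%), or 17 with replicate number as a block for LEF1 arrays alone. With so small a share called, a count of 0 of 5 says little. At an unadjusted p under 0.05 there was 1 of 5, against 958 of all genes. DDIT4L had the largest estimate of the 5, 1.35 on the log2 scale (95% interval 0.26 to 2.43, limma adjusted p = 0.590). Without SNAI1 line 6 h replicate 2 its estimate was 2.00 with an adjusted p = 0.00813, and without replicate 1 it was 0.69 with 0.891. At 3 h, where there is 1 array a line, DDIT4L read 6.38 in the SNAI1 line and 4.80 in the control line, and at 0 h it was higher in the SNAI1 line too. Taken as a change from 0 h, the estimate was 0.68 (adjusted p = 0.9999). LIX1L had an estimate of 0.38 (interval -0.18 to 0.93, adjusted p = 0.850), which was 0.70 with 0.0966 without SNAI1 line 6 h replicate 2 and 0.05 without replicate 1. EMP3 had 0.32 (interval -0.24 to 0.88, adjusted p = 0.878). LAMP5 (-0.02, interval -0.41 to 0.36) and MYL10 (-0.04, interval -0.53 to 0.45) had adjusted p-values of 0.993 and 0.992. Their values at these times were below detection, so these intervals bound a signal at background.

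In the LEF1 line at 6 h limma also called 0 of 5, against 5 of all genes (0.037%), which says as little. At an unadjusted p under 0.05 there was 1 of 5, against 1321 of all genes. With replicate number as a block for LEF1 arrays alone, an alternative chosen after seeing the data, 205 of all genes were called and 0 of the 5, with adjusted p-values of 0.379 or more. DDIT4L had an estimate of 1.27 (interval 0.01 to 2.52, limma adjusted p = 0.505). The LEF1 arrays read 6.39 and 5.74, and the control arrays 4.37 and 5.23. Taken as a change from 0 h, where the LEF1 line did not detect DDIT4L, its estimate was 1.85. With that baseline limma called 0 of all genes. Without that baseline the other 4 estimates were -0.17 for LAMP5, 0.15 for EMP3, -0.17 for MYL10 and 0.06 for LIX1L, with intervals that all reached from below -0.49 to above 0.27. LAMP5, MYL10 and LIX1L were detected on no LEF1 or control array, so their estimates here compare signals at background. For them this test could not show whether the genes changed. The control pair at 6 h spans the 2 array sets. Against its set 2 array alone the DDIT4L estimate was 1.70 (adjusted p = 0.753).

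**Figure D4:**
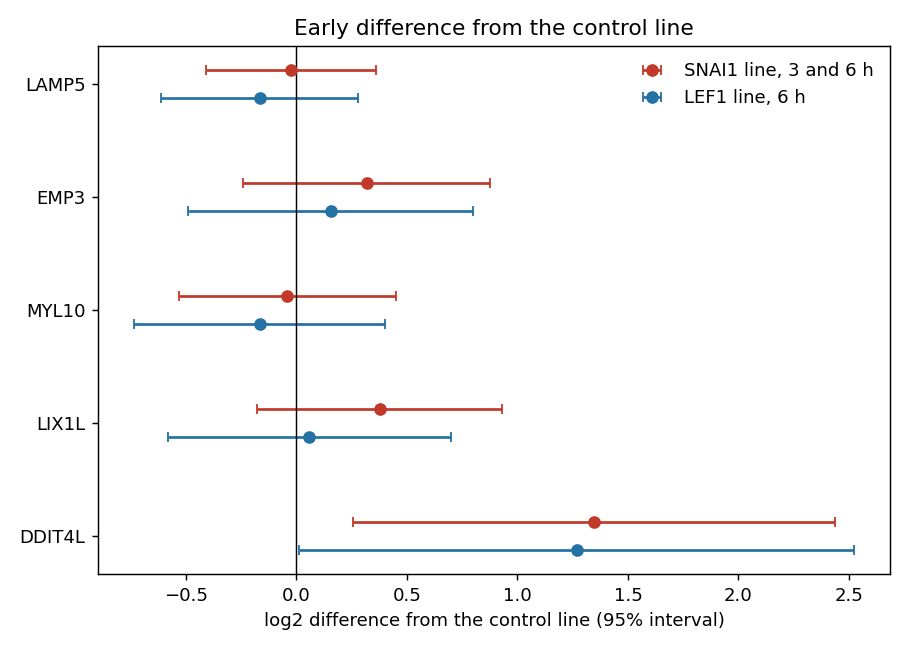
Log2 difference from the control line (x axis) with its 95% interval for the 5 genes, in the SNAI1 line over 3 and 6 h and in the LEF1 line at 6 h. The intervals of DDIT4L lie above 0 in both lines before adjustment, and those of the other genes span 0.

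Relatives of these genes, listed by function, were followed to see whether whole families moved. Of 14 lysosomal membrane genes 12 were tested. In the SNAI1 line late, limma called 1 lower and 1 higher of the 12, beside 8.69% of all genes in either direction. The list's median late effect was 0.15, against 0.02 over all genes. CLN3, which encodes the Batten disease protein of the lysosomal membrane, fell from a mean of 8.88 at 0 h to 6.80 at 96 h (late effect -2.15, SE 0.477, limma adjusted p = 0.0107). Another CLN3 probe gave -1.93 (0.00253 over all probes). The CLN3 call was lost without control 0 h replicate 2 (0.0734) or SNAI1 line 0 h replicate 1 (0.0522). LAMP2, a major lysosomal membrane glycoprotein gene, rose from 10.1 to 11.5 (late effect 0.99, SE 0.255, adjusted p = 0.0254). Its call did not hold with the mean of its 6 probes (0.50, adjusted p = 0.192), within array set 1 (0.0673) or without any 1 of 5 arrays (up to 0.179). SCARB2, a lysosomal receptor gene named after its values were seen, also passed once replicate number was a block for LEF1 arrays alone (0.82, adjusted p = 0.0119). Late in the LEF1 line limma called 0 of the 12, beside 1.15% of all genes. At an unadjusted p under 0.05 there was 1 of the 12, beside 1587 of all 13510 genes. CLN3 there had -0.79 (0.639) and LAMP2 0.45 (0.610).

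EMP3 belongs to a family of small membrane proteins that includes PMP22, a protein of myelin. Of its 6 relatives with 4 spans, 3 were tested, and limma called 0 late in either line (0 at an unadjusted p under 0.05). With 3 genes and shares of 8.69% and 1.15% over all genes, a count of 0 says little. The late effects in the SNAI1 line were 0.26 for EMP1, an epithelial membrane protein gene, 0.29 for PERP, a desmosome and p53 target gene, and -0.04 for TMEM47. The list's median was 0.26 in the SNAI1 line and -0.31 in the LEF1 line. EMP2 and LIM2 did not pass the filter, and PMP22 has no probe among those with a gene name here.

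Of 23 genes for myosin light chains, their kinases and phosphatases and non-muscle heavy chains, 13 were tested. Limma called 0 in the SNAI1 line late, beside 8.69% of all genes. At an unadjusted p under 0.05 there were 2 of the 13, beside 2858 of all 13510 genes. The 2 were PPP1R12A, the targeting subunit of myosin phosphatase (0.80, SE 0.276, adjusted p = 0.0956), and MYL6B, an alkali light chain gene (0.70, SE 0.308, adjusted p = 0.206). The list's median was -0.09. The LEF1 line had 0 calls too, beside 1.15% of all genes, and a median of 0.04. At an unadjusted p under 0.05 it had 1 of the 13, beside 1587 of all genes. The light chain genes MYL1, MYL3, MYL4, MYL7 and MYL9 and the kinase genes MYLK, MYLK2 and MYLK3 were detected on at most 1 array.

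LIX1, the relative of LIX1L, was detected on 3 arrays, those of the SNAI1 line at 72 and 96 h, with means of 5.96 and 5.49. Its late effect was 0.66 (SE 0.332, limma adjusted p = 0.283) in the SNAI1 line. In the LEF1 line it was 0.92 (adjusted p = 0.347), where no array detected it.

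All 16 genes of the DDIT4 and mTORC1 list were tested, and limma called 1 higher and 1 lower in each line late, beside 8.69% of all genes in the SNAI1 line and 1.15% in the LEF1 line in either direction. The list's median late effect was 0.12 in the SNAI1 line and -0.24 in the LEF1 line, against 0.02 and -0.01 over all genes. RHEB, the GTPase that activates mTORC1, rose in both lines. Its mean went from 11.46 at 0 h to 12.67 at 96 h in the SNAI1 line (late effect 0.99, SE 0.224, adjusted p = 0.0125) and from 11.56 to 12.87 at 72 h in the LEF1 line (1.21, SE 0.256, adjusted p = 0.0344). With 1 array left out, RHEB kept its call in 24 of 27 fits in the SNAI1 line and in 15 of 27 in the LEF1 line. Without control 72 h, which leaves 24 h alone, the LEF1 line estimate was 1.18 and was not called. DEPTOR, which encodes an mTOR inhibitor, fell in the SNAI1 line from 7.43 at 0 h to 6.04 at 96 h (-1.41, SE 0.260, adjusted p = 0.00313), and its other probe gave -0.96 (0.200 over all probes). DEPTOR had -0.83 (0.261) in the LEF1 line.

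DDIT4, the best known relative of DDIT4L, was lower in the LEF1 line while DDIT4L was higher there. The mean there fell from 12.37 before doxycycline to 10.9 by 24 h and 9.46 by 72 h (late effect -3.27, SE 0.716, limma adjusted p = 0.0413). The control line went from 11.99 at 0 h to 13.29 at 72 h. The call held in 14 of 27 fits with 1 array left out and did not hold with array set as a block (0.058). Without control 72 h, which leaves 24 h alone, the estimate was -2.35 and was not called. In the SNAI1 line DDIT4 had -0.62 (adjusted p = 0.647), which was -1.48 with 0.0138 within array set 1. The difference between the lines was 2.55 (adjusted p = 0.0866). It passed with the replicate block (2.71, adjusted p = 0.0162) and in 4 of 27 fits with 1 array left out (from 0.0203 to 0.781 over the 27). For the difference between the lines limma called 0 genes in all 5 lists, beside 2.73% of all genes. At an unadjusted p under 0.05 there were 2 lysosomal and 3 DDIT4 list genes, beside 1656 of all genes. Before 24 h, over 3 and 6 h limma called 0 in the 5 lists for the SNAI1 line (3 at an unadjusted p under 0.05). Over all 13510 genes it called 0.0814%, with 958 at an unadjusted p under 0.05. At 6 h it called 0 in the lists for the LEF1 line (4 at an unadjusted p under 0.05), beside 0.037% of all genes, with 1321 at that unadjusted p. Counts of 0 therefore say little about the lists. Within array set 1 DDIT4 was called lower at 3 and 6 h in the SNAI1 line (-1.73, adjusted p = 0.0264).

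**Figure D5:**
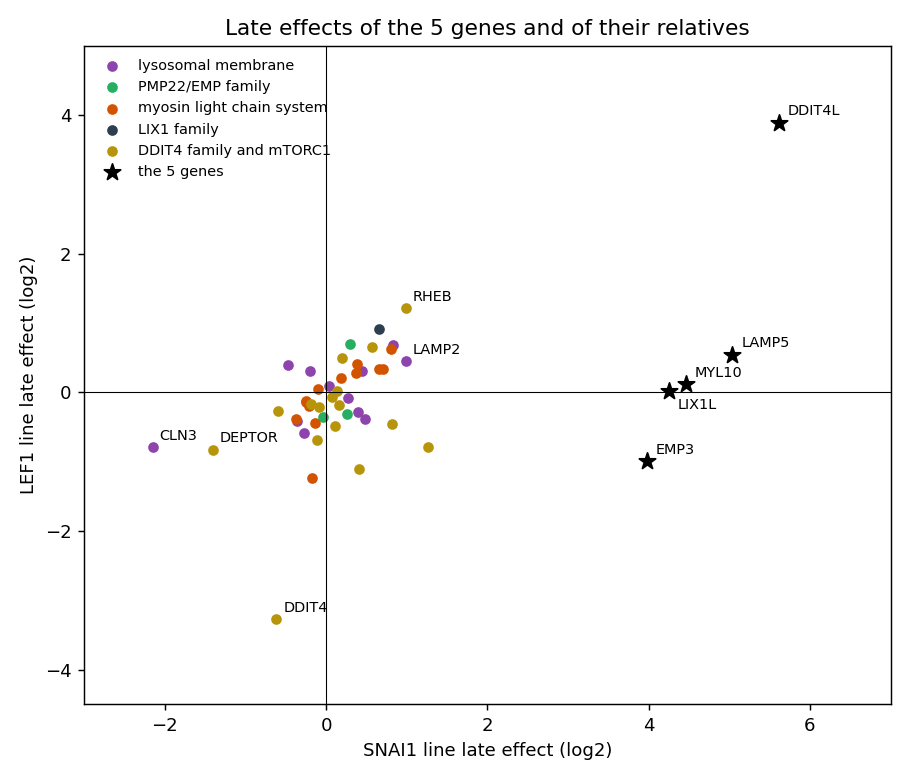
Late effect in the LEF1 line (y axis) against that in the SNAI1 line (x axis), both log2, for the 5 genes (stars) and their tested relatives coloured by list; labelled relatives passed the 5% threshold in at least 1 line. The stars sit at 3.98 or more on the x axis, and all relatives lie below 1.5.

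The genes most like each of the 5 were taken from the Pearson r of the 18 group means, as a description over groups that share lines, 0 h arrays and normalization. MYL10 and LIX1L were each other's nearest gene (r = 0.993), followed for both by MTCL2 (0.978 and 0.979), a microtubule crosslinking gene whose mean was 4.55 at 0 h and 7.92 at 96 h in the SNAI1 line. The third was FAM171B (0.968) for MYL10 and EMP3 (0.971) for LIX1L. EMP3 was closest to ASAP3, an ARF GTPase-activating gene (0.980), then IGFBP6, which encodes a binding protein for insulin-like growth factors (0.972), and LIX1L (0.971). LAMP5 was closest to DIO2, the deiodinase that activates thyroid hormone (0.991), NDRG4 (0.988) and ZBTB46 (0.986). DIO2 shared the delay of LAMP5, with means of 4.74 at 0 h, 5.07 at 24 h, 6.88 at 48 h and 8.69 at 72 h in the SNAI1 line. The late values that chose the genes also enter the r between them. EMP3, MYL10 and LIX1L had r from 0.966 to 0.993 with each other, and LAMP5 had 0.893 to 0.905 with each of them. DDIT4L had r from 0.778 with LAMP5 to 0.888 with MYL10. Its nearest genes were EXTL2 (0.959), IFI44 (0.958) and TSHZ1 (0.951). IFI44, an interferon-induced gene, had late effects of 2.27 in the SNAI1 line and 2.28 in the LEF1 line.

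Markers of other cell types were followed beside these values. The summed level of the 9 epithelial markers was 12.8 to 13.8 on the late SNAI1 arrays, 14.3 to 14.7 on its earlier arrays, 14.8 to 15.2 in the control line and 14.5 to 14.97 in the LEF1 line on the log2 scale. Of these 9, limma called 5 lower in the SNAI1 line late, beside 4.8% of all genes, among them VIL1 (-3.03, SE 0.242, adjusted p = 6.09e-06) and CDH1 (-1.41, SE 0.241, adjusted p = 0.00182). Late in the LEF1 line it called 1 of the 9, beside 1.15% of all genes in either direction. This was LGALS4, a galectin gene of gut epithelium (-2.44, SE 0.484, adjusted p = 0.0231). LAMP5 is known from neurons and plasmacytoid dendritic cells, and the dendritic marker CLEC4C and the neuronal marker RBFOX3 were detected on 0 of 27 arrays. GAD1, an enzyme of GABA synthesis used as a neuronal marker, was detected on 16 and rose late in the SNAI1 line (2.12, SE 0.476, adjusted p = 0.0119). The summed neuronal level was 6.02 to 7.87 on the late SNAI1 arrays, 4.39 to 6.09 on its earlier arrays, 4.73 to 5.99 in the control line and 5.04 to 7.01 in the LEF1 line, so the late SNAI1 range overlaps those of its earlier arrays and of the LEF1 line. The summed fibroblast level in the same order was 5.23 to 6.52, 4.83 to 5.80, 4.52 to 5.46 and 4.55 to 5.29, and LUM, a matrix proteoglycan gene, was detected on 4 arrays, all late SNAI1 arrays. PECAM1 and CDH5 of endothelium were detected on 0 arrays, and of the leukocyte markers PTPRC and CD3E on 1 each and CD14 on 10, of which 4 were late SNAI1 arrays and 4 control arrays. The part of these markers in the 5 genes' values was not tested.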

How the data were processed

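Per the file headers, the deposited table pairs each array's probe intensities, before normalization between arrays, with detection p-values; the values show a log2 scale. The authors' series matrix holds log2 values with equal medians and the same order within each array. The scanner software is not given in the sources used. The detection p-value is used as deposited by the authors.

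In the platform annotation 30113 of 47323 probes have 1 gene, 8 several and 17202 none, and 6 probes with non-finite values were left out. Symbols were updated through gene identifiers for 30074 probes. Neqc (limma 3.58.1, R 4.3.3) corrected background with normexp, an offset of 16 and controls inferred from the detection p, before quantile normalization. The filter required detection (p under 0.01) on 2 or more arrays, which 25629 probes met. The probe of highest mean represented each of 13510 genes. One limma model held 18 group means over 27 arrays (9 residual and 4.92 prior degrees of freedom), with Benjamini-Hochberg adjustment at 5% over all genes. The steps were tested on simulated data. Contrasts against the control line used 3 and 6 h (SNAI1 line) or 6 h (LEF1 line). One LEF1 array titled 6 h carries 0 h in its time field and was taken as 6 h.

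The 5 genes, the lists of relatives and markers and the tests were chosen with earlier results of these data known. Named genes are the 5, the 3 most alike for each, LEF1 and CDH1 as references, and relatives that passed 5% in any contrast, with at least the 2 lowest p-values of a list. Deviations from the group means of same-numbered arrays correlated at 0.47 to 0.52 over the 3 pairs of LEF1 line groups, so the numbers pair the arrays there, as the data and not the labels show. They did not in the SNAI1 line (-0.01 to 0.13 over 6 pairs). Alternatives changed the background correction, normalization, filters, probe choice, array set, baseline and replicate block, and left out each array in turn. Promoter windows and gene names came from RefSeq (GRCh38.p14).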

Additional observations from a re-analysis of the deposited data

How the results depend on the processing

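The sign of the late effect of the 5 genes in the SNAI1 line and of the difference between the lines held under every alternative run. The late values also chose the genes, so a constant sign is a description and not a test. The sizes moved: with 1 array left out the difference ran from 0.90 to 6.43 for LAMP5 and from 0.41 to 2.58 for DDIT4L. The count for the LEF1 line at 6 h was 5. It became 3 (KRT80, EPDR1 and SANBR) without the filter on dim probes and 9 with trended, robust variance. It was 0 within array set 2 (871 genes at an unadjusted p under 0.05 in limma) and 0 as a change from 0 h (354). The count for the SNAI1 line at 3 and 6 h, 11, became 25 within array set 1 and 0 as a change from 0 h (337 at an unadjusted p under 0.05 in limma). Against the own 0 h, without the control line, 2712 genes passed in the SNAI1 line late and 696 in the LEF1 line late. Within 1 array set, an alternative chosen after seeing the data, the counts were 4316 and 258. The causes were not tested. In the fits that follow, leaving out the only array of a line and time drops that time from both lines of a contrast. Leaving out 1 array gave 1 (EPDR1, without control 6 h replicate 1) to 68 (without SNAI1 line 6 h replicate 2) for the SNAI1 line at 3 and 6 h, and 1 (KRT80, without control 6 h replicate 2) to 6 for the LEF1 line at 6 h. It gave 646 (without SNAI1 line 0 h replicate 2) to 1917 (without control 0 h replicate 1) for the SNAI1 line late and 24 (without control 72 h) to 357 (without control 24 h) for the LEF1 line late. For the difference it gave 40 (without SNAI1 line 72 h) to 638 (without SNAI1 line 24 h). EPDR1, KRT80 and SANBR are named after their values were seen. With any 1 detected array, LIX1L was first detected at 6 h in the SNAI1 line and DDIT4L at 0 h in the control line. Over 27 arrays in place of 18 group means, 1 of the 3 genes nearest to LAMP5 and 1 of those nearest to DDIT4L stayed in the top 3. Replicate numbers did not pair samples across lines (36 pairs of groups, 8 with r over 0.1, range -0.43 to 0.52). With the replicate block over all lines the 5 counts were 12, 6, 1247, 188 and 424, against 11, 5, 1174, 156 and 369, and DDIT4 passed in the difference. With the block in the LEF1 line alone, where the numbers pair the arrays, they were 17, 205, 1532, 225 and 447; no call of the 5 genes changed. No fit within 1 array set could be made for the difference between the lines, which share no set. Dim signals limit LAMP5, MYL10 and LIX1L outside the late SNAI1 arrays, where only bounds are available.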
